A study of Mus musculus with 20 samples.

Results

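The genes described here encode ubiquitin-conjugating enzymes (E2s), the scaffolds of cullin ligases and the proteins that bring substrates to those scaffolds, followed in mouse oocytes through the resumption of meiosis. They are all genes of 2 deposited expression tables whose symbol starts with Ube2, Cul and a digit, Fbxl, Fbxo, Fbxw, Skp or Klhl, with Ube2c and Fbxo43 left out. This gave 102 of 8114 genes: 24 named as E2s, 6 cullins, Skp2, 54 F-box genes (11 Fbxl, 24 Fbxo and 19 Fbxw) and 17 Klhl genes. The table of ribosome-bound mRNA listed 96 of them among 7543 genes, the table of total RNA 100 among 7917, and 94 were in both. One gene named as an E2, Ube2cbp, is known as the ubiquitin ligase Ube3d.

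All samples were oocytes of 3-week-old C57BL/6 females that were Zp3-Cre+ and carried RiboTag, in which Cre adds an HA tag to a ribosomal protein so that ribosomes and the mRNA on them can be pulled down. The Zp3 promoter drives Cre in growing oocytes, so tagged ribosomes come from the oocyte and total RNA from everything in the tube. Females received 5 IU of PMSG, and 44 h later oocytes were freed from their cumulus cells by pipetting and held in prophase I with 1 µM cilostamide, a phosphodiesterase inhibitor. They were collected at that stage (0 h) or after culture without cilostamide: at 2, 4 and 6 h they were in early, mid and late prometaphase I by the labels, and at 8 h they had reached metaphase I. Oocytes were pooled by 200, and each time had 2 libraries of ribosome-bound mRNA and 2 of total RNA, 20 libraries in 10 groups. The labels do not tie a total RNA library to the oocytes of a ribosome-bound one. No untagged or mock pull-down was analysed here. The labels do not say that the 2 samples of a time came from separate animals or cultures, so p-values measure the spread between these samples.

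Ubiquitin passes from an activating enzyme (E1) to an E2 and then, with a ligase (E3), to a substrate. In a cullin ligase the cullin holds a RING protein and its E2 at one end and a substrate receptor at the other: F-box proteins through Skp1 on Cul1, BTB proteins such as the Klhl family on Cul3, DDB1-bound receptors on Cul4a and Cul4b, and SOCS-box or VHL-box proteins on Cul5 and Cul2. The fully grown oocyte makes almost no new RNA, and destruction of cell cycle proteins by ubiquitin ligases goes alongside translation of stored mRNAs as meiosis resumes.

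Values are in scaled CPM, the authors' CPM times a factor for each library, and are shares of a library: fewer oocytes and less RNA per oocyte cannot be told apart, and an overall change in mRNA per oocyte is not seen. The 2 tables were scaled separately, so a level on ribosomes is not set against a level in total RNA, and levels are not compared between genes. Inferred depths were 27571236 to 51714900 reads in the listed genes of a library, so that 282 to 533 reads lie behind a value of 10. Replicates correlated across genes with r of 0.949 to 0.974, lowest for the ribosome-bound pair at 0 h. The ribosome-bound 4 h replicate 1 correlated less well with the mean of the other ribosome-bound libraries (r = 0.963) than its partner did (r = 0.984). Of 12 oocyte markers 11 were listed on ribosomes, with a summed level of 22380 to 25810 at 8 h and 41670 to 50080 at 0 h. The total RNA table listed 10 of them, with 15160 to 15980 at 8 h and 14680 to 15340 at 0 h. Of 18 granulosa and cumulus cell markers 4 were listed on ribosomes (Cyp19a1, Fshr, Nr5a2 and Serpine2), with a summed level of 524.1 to 529.1 at 8 h and 198.6 to 207.1 at 0 h. In total RNA 6 were listed, with 428.2 to 549.8 at 8 h and 324.4 to 388.9 at 0 h. Of 13 markers of blood, stroma and endothelium Pecam1 and Tek were listed on ribosomes, with 106.3 to 162.4 at 8 h and 155.3 to 189.5 at 0 h. The other markers of these lists were not in the tables, and the part of the listed ones in the results below was not tested.

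On ribosomes, members of every family had moved by metaphase I, and few passed the threshold in total RNA. At 8 h against 0 h, 43 of 96 members (44.8%) passed an adjusted p of 0.05 in limma, 22 higher and 21 lower, where 42.1% of all 7543 genes passed, 20.2% higher and 21.8% lower. The 96 members thus changed about as often as other genes, with a median log2 change of -0.09 for members and -0.06 for all genes. In total RNA 5 of 100 members passed at 8 h, all lower, where 3.97% of all 7917 genes passed, 0.947% higher and 3.02% lower. The families' counts were as follows, with no test between families. On ribosomes all 3 of 6 cullins that passed were higher, as was Skp2, and Fbxo genes had 8 higher and 2 lower of 22. Of 18 Fbxw genes 14 were lower and 0 higher (15 at an unadjusted p under 0.05, all of them lower, where 3787 of all 7543 genes had such a p). There were 4 E2s higher and 3 lower of 24, 3 Fbxl genes higher and 1 lower of 11, and 3 Klhl genes higher and 1 lower of 14.

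**Figure D1:**
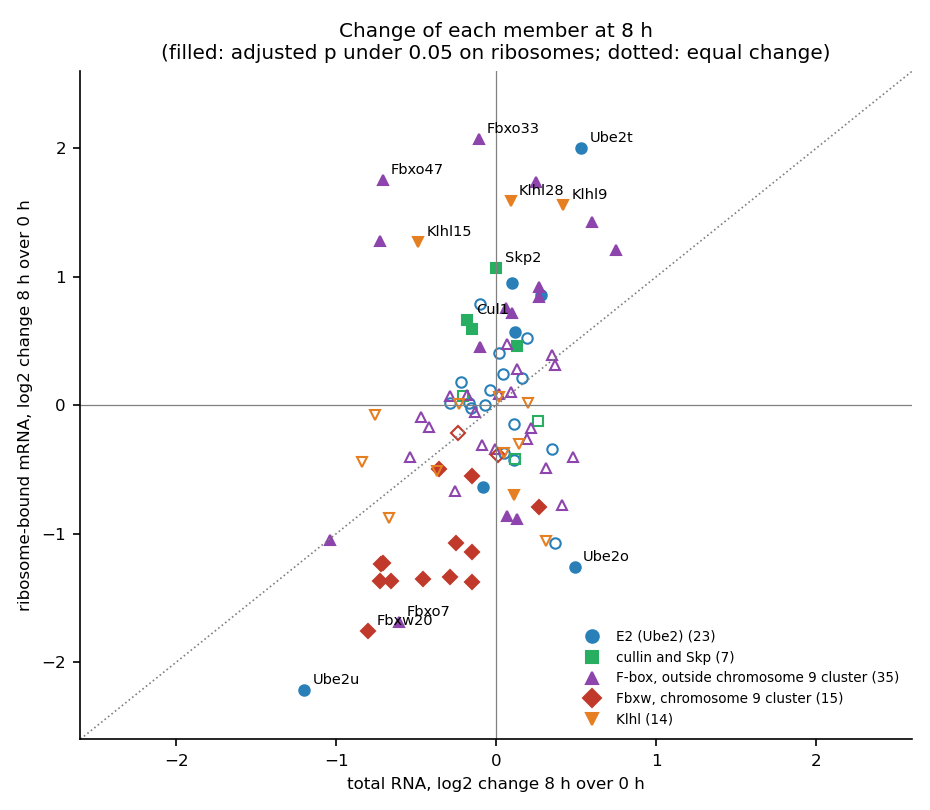
Log2 change of the 94 members in both tables at 8 h over 0 h, in ribosome-bound mRNA (vertical axis) and in total RNA (horizontal axis), with 1 symbol per gene; filled symbols passed an adjusted p of 0.05 on ribosomes and the dotted line marks equal change. Changes run from -2.22 (Ube2u) to 2.07 (Fbxo33) on ribosomes, and the 15 Fbxw genes of chromosome 9 lie below 0 there, 13 of them filled.

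The changes built up with time. At 2 h only Ube2t and Cul3 passed on ribosomes, 1 in each direction, where 1.47% of all genes passed, 0.729% higher and 0.742% lower. With libraries centred on their medians 2 were higher and 1 lower. At 4 h 9 members were higher and 3 lower, where 15.7% of all genes passed (9.16% higher, 6.56% lower), and with centred libraries 9 were higher and 1 lower. Without the ribosome-bound 4 h replicate 1, 6 members passed at 4 h, all higher. At 6 h 14 were higher and 17 lower, where 27.9% of all genes passed (14.6% higher, 13.3% lower). Leaving out ribosome-bound 6 h replicate 1 left 13 of these 31 calls in number, and leaving out 6 h replicate 2 or 0 h replicate 1 left 20. In all, 47 members passed at 1 or more times and 49 at none, and 0 passed in both directions. The higher members were first called at 2 h (1), 4 h (8), 6 h (5) and 8 h (9), and the lower members at 2 h (1), 4 h (2), 6 h (14) and 8 h (7). Such counts over the times were not made for all genes, so they describe the members alone. Cul3, Fbxo5, Fbxo46 and Klhl21 passed at an earlier time and not at 8 h.

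The 3′ end of an mRNA is where the cytoplasmic polyadenylation element (CPE) lies, the site through which CPEB proteins govern the tail and the translation of stored oocyte mRNAs, near the hexamer that directs polyadenylation. The last 100 bases of the annotated 3′ UTR were searched on the sense strand for the CPE letters TTTTAT or TTTTAAT and the hexamer letters AATAAA or ATTAAA, whose matches may share letters where they adjoin. The CPE letters were found in 7 of the 21 members with such a window that were higher on ribosomes at 8 h (33.3%), in 0 of 12 that were lower and in 10 of 53 that did not pass (18.9%). Over all genes of the table with a window the shares were 36.6% of those higher, 10% of those lower and 20.3% of those that did not pass, so the members follow the same order as the table as a whole. Among the lower members 9 had no annotated 3′ UTR of 100 bases and were not searched. A match is a description of the letters and shows no binding. The following 30-base stretches of GENCODE vM21 (mm10), written 5′ to 3′ as DNA on the transcript strand, are from 6 of the 7 higher members that hold the letters, to show where the letters lie, and from Cul3, which was lower at 2 to 6 h. Capitals mark the CPE letters and, where it falls inside the stretch, a hexamer. The Fbxo33 stretch also holds the hexamer letters AATAAA, left in lower case between the marked letters.
Fbxo33: tcTTTTAATcaatgaataaagcATTAAAaa
Klhl15: agtttaAATAAAatatTTTTAATctttaaa
Ube2t: aaggatagtttgTTTTATttatcttgtaca
Skp2: ttttaaAATAAAtacatTTTTATaagaaca
Fbxl20: attttgTTTTATgatgtaATTAAAggaaat
Fbxo25: taaaatgtgctgTTTTATtttaaaaataat
Cul3: gggacagcatttTTTTATttgtcatttaaa
In Skp2 the CPE letters began 14 bases from the annotated 3′ end, in Klhl15 15, in Fbxo33 and Fbxl20 32, in Fbxo25 69, in Ube2t 70 and in Cul3 82.

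Among the E2s the largest rise was that of Ube2t, the E2 of the Fanconi anaemia pathway of DNA crosslink repair. On ribosomes it had 90.2 and 77.4 at 0 h, 151 and 125 at 2 h, 195 and 203 at 4 h, 305 and 268 at 6 h and 307 and 372 at 8 h (scaled CPM, replicate 1 first). Both libraries of each time lay above both of the time before, without overlap. The log2 change was 0.71 ± 0.17 (limma SE) at 2 h with an adjusted p of 0.0439, 1.24 ± 0.17 at 4 h (0.000116) and 2.00 ± 0.17 at 8 h (1.22e-07). Its total RNA had 158 and 156 at 0 h, 160.0 and 178 at 2 h, 172 and 209.8 at 4 h, 248 and 235 at 6 h and 254 and 203 at 8 h, a log2 change of 0.53 ± 0.16 at 8 h that did not pass (adjusted p 0.0703 in limma). The ribosome-bound change exceeded the total RNA change by 1.47 ± 0.23 at 8 h (adjusted p 5.6e-05). The 2 h call alone was lost without ribosome-bound 0 h replicate 2 or either 2 h replicate; those at 4, 6 and 8 h on ribosomes held under each alternative.

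Ube2k, which builds ubiquitin chains linked through lysine 48, reached its higher level by 4 h and stayed there. Its ribosome-bound values were 571 and 804 at 0 h, 1006 and 937 at 2 h, 1506 and 1214 at 4 h, 1439.7 and 1225 at 6 h and 1290.3 and 1325 at 8 h (every library from 2 h on was above both of 0 h). Total RNA gave 1262 and 875 at 8 h, against 936 and 1020.2 at 0 h, and these overlapped. The log2 change on ribosomes was 1.00 ± 0.16 at 4 h and 0.95 ± 0.16 at 8 h (adjusted p 0.000451 and 0.000161 in limma), and it exceeded that in total RNA by 0.84 ± 0.23 at 8 h (adjusted p 0.00959), a call lost without ribosome-bound 0 h replicate 1 or total 8 h replicate 2. Ube2h, the E2 of the CTLH ligase in human cells, had 120.1 and 166 at 0 h, 217 and 208 at 2 h, 264 and 193 at 4 h, 242 and 255 at 6 h and 272 and 241 at 8 h on ribosomes. Its later libraries were likewise all above those of 0 h, with a log2 change of 0.86 ± 0.18 at 8 h (adjusted p 0.00131), and the excess over total RNA did not pass (0.57 ± 0.27, adjusted p 0.137). Ube2d2a, one of the E2s that serve many ligases, had 116 and 131 at 8 h, against 71.6 and 95.7 at 0 h (0.57 ± 0.20, adjusted p 0.0264 in limma). That call was lost without ribosome-bound 0 h replicate 1 or either 8 h replicate.

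Ube2o, a large enzyme that works as E2 and E3 in one and clears ribosomal proteins from maturing red cells, fell. Its ribosome-bound values were 116 and 117 at 0 h, 68.6 and 67.4 at 2 h, 81.2 and 68.4 at 4 h, 60.98 and 49.8 at 6 h and 48.6 and 47.6 at 8 h. The 0 h pair stood above every later library. Its total RNA was higher in value at the end, with 67.2 and 79.2 at 8 h and 44.8 and 59.6 at 0 h, though this did not pass (0.49 ± 0.22, adjusted p 0.246 in limma). On ribosomes the log2 change was -1.26 ± 0.21 at 8 h (adjusted p 0.000124), which lay -1.75 ± 0.29 from that of total RNA (adjusted p 0.000138), the lowest such value of any member. Ube2s, which extends chains linked through lysine 11 on substrates of the anaphase-promoting complex, had 112 and 86.6 at 0 h, 107 and 92.8 at 2 h, 73.6 and 61.7 at 4 h, 47.7 and 60.9 at 6 h and 68.5 and 58.05 at 8 h. Values of 4 h and later lay below both of 0 h, and the log2 change at 8 h was -0.64 ± 0.22 (adjusted p 0.0276 in limma), a call lost without ribosome-bound 0 h replicate 1 or 8 h replicate 2. Ube2u was at low levels, 1.38 and 3.05 at 8 h, against 12.6 and 14.4 at 0 h, with a log2 change of -2.22 ± 0.51 that was -1.36 with a pseudocount of 5. Its total RNA was lower in value too, 6.78 and 6.72 at 8 h, against 16.3 and 17.2 at 0 h. Neither that change nor the difference of the changes passed. Ube2u is in the ribosome-bound table through its values before 8 h, since each gene listed has at least 1 library with a value of 10 or more.

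The E2s of NEDD8 and of DNA damage tolerance did not pass on ribosomes at 8 h. The NEDD8 E2 Ube2m, listed on ribosomes only, had 8.22 and 4.34 at 8 h, against 10.5 and 12.2 at 0 h (adjusted p 0.161 in limma). Ube2n, the E2 of chains linked through lysine 63, gave a log2 change of 0.18 ± 0.37, the RAD6 homologue Ube2a 0.24 ± 0.27, Ube2r2, an E2 of Cul1 ligases, 0.21 ± 0.48, and Ube2d3 -0.34 ± 0.15. For Ube2r2 the sign turned without ribosome-bound 0 h replicate 2 (-0.12). In Ube2d3 total RNA had 422 and 355 at 8 h, against 326 and 283 at 0 h, and the ribosome-bound change lay below that of total RNA by a log2 of -0.68 ± 0.23 (adjusted p 0.0323 in limma), a call lost with centred libraries and without any of 4 single libraries (ribosome-bound 0 h replicate 1 and 8 h replicate 2, total 0 h replicate 2 and 8 h replicate 1). The members Ube2f, Ube2b and Fbxw7 of the same panel were in neither table.

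**Figure D2:**
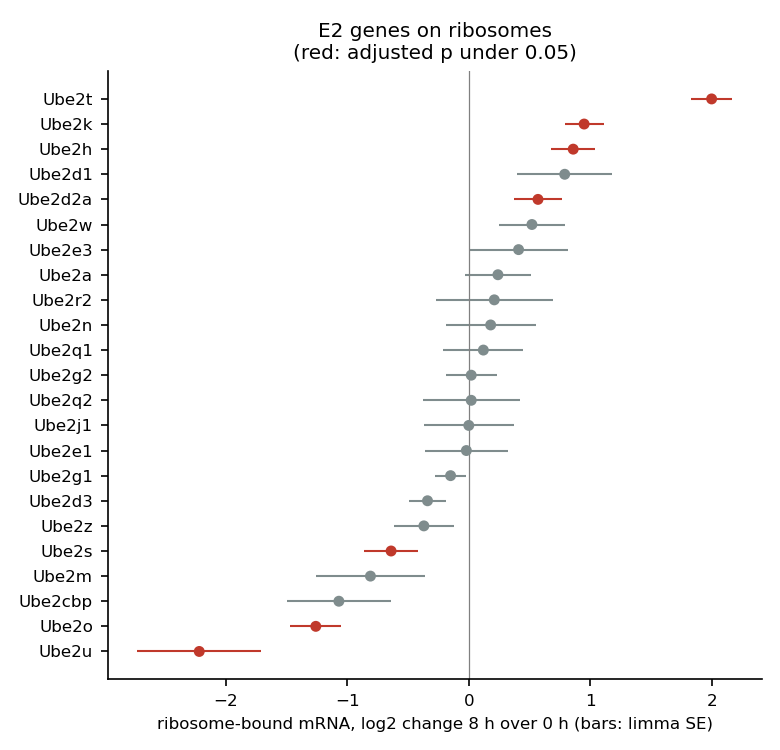
Log2 change of ribosome-bound mRNA at 8 h over 0 h for 23 genes named as E2s, points with limma SE as bars, ordered by change; red marks an adjusted p under 0.05. Ube2t stands at 2.00 above all others, Ube2k, Ube2h and Ube2d2a are the other genes in red on the right, and Ube2s, Ube2o and Ube2u are in red on the left.

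Of the cullins, Cul1, Cul4b and Cul5 rose on ribosomes and Cul3 fell early. Cul1, the scaffold of the SCF ligases that take F-box proteins, had 1741 and 1612 at 0 h, 2031 and 2069.8 at 2 h, 2778 and 2541 at 4 h, 2558 and 2538 at 6 h and 2521 and 2765 at 8 h on ribosomes. Every library from 2 h on was above both of 0 h, and those of 4 to 8 h were above those of 2 h. Its total RNA had 960.0 and 938 at 8 h and 1047 and 1099 at 0 h (-0.18 ± 0.11, adjusted p 0.397 in limma). The ribosome-bound log2 change was 0.67 ± 0.12 at 4 h (adjusted p 0.00123) and 0.66 ± 0.12 at 8 h (0.000352), and at 8 h it exceeded that of total RNA by 0.83 ± 0.15 (0.000316). Of the 6 cullins Cul1 alone passed this last test at 8 h.

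Cul3, on which the Klhl proteins work, was the only cullin called lower at any time. It had 196 and 219.7 at 0 h, 122 and 126 at 2 h, 159.7 and 129 at 4 h, 136 and 135 at 6 h and 162 and 148 at 8 h. The 0 h pair was above every later library, and the values at 8 h came closest to it. The log2 change was -0.74 ± 0.17 at 2 h (adjusted p 0.0354 in limma), -0.53 ± 0.17 at 4 h (0.0425), -0.61 ± 0.17 at 6 h (0.013) and -0.42 ± 0.17 at 8 h (0.0573), which is just over the threshold. In total RNA its values overlapped at 8 h (144 and 172) and 0 h (144 and 146), and the ribosome-bound change lay below the total RNA change by a log2 of -0.78 ± 0.22 at 6 h (0.0195) and -0.53 ± 0.22 at 8 h (0.0851). The 2 h call was lost without ribosome-bound 0 h replicate 2 or either 2 h replicate, the 4 h call without any single library of 0 or 4 h and with centred libraries, and the 6 h call without 0 h replicate 2 or either 6 h replicate. The call of the difference at 6 h was lost without any of 6 single libraries (ribosome-bound 0 h replicate 2 and either at 6 h, either total one at 0 h, and total 6 h replicate 1).

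Cul4b, an X-linked scaffold of DDB1-based ligases, had 539 and 538 on ribosomes at 8 h, against 384 and 399.8 at 0 h, groups without overlap (0.46 ± 0.15, adjusted p 0.0187 in limma). Its close relative Cul4a had 72.2 and 50.3 at 8 h, against 48.8 and 67.1 at 0 h, which overlapped (0.07 ± 0.25, sign turned to -0.15 without ribosome-bound 0 h replicate 1 and to -0.18 without 8 h replicate 1). Whether the 2 genes differ in change was not tested. Cul5, the scaffold for SOCS-box receptors, had 148 and 114 at 8 h and 82.5 and 88.7 at 0 h; it passed at 6 h (0.79 ± 0.19, adjusted p 0.00605) and 8 h (0.59 ± 0.19, 0.0206 in limma). The VHL scaffold Cul2 had 1 high library at 0 h (57.8 and 28.04) and 34.1 and 40.2 at 8 h, and its change of -0.12 ± 0.32 was 0.39 without ribosome-bound 0 h replicate 1. The 8 h call of Cul4b was lost without ribosome-bound 0 h replicate 1 or either 8 h replicate, and that of Cul5 without 0 h replicate 1 or 8 h replicate 1. The 6 h call of Cul5 was lost without 6 h replicate 1. The 3′ windows of Cul1, Cul4b and Cul5 held no CPE letters.

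**Figure D3:**
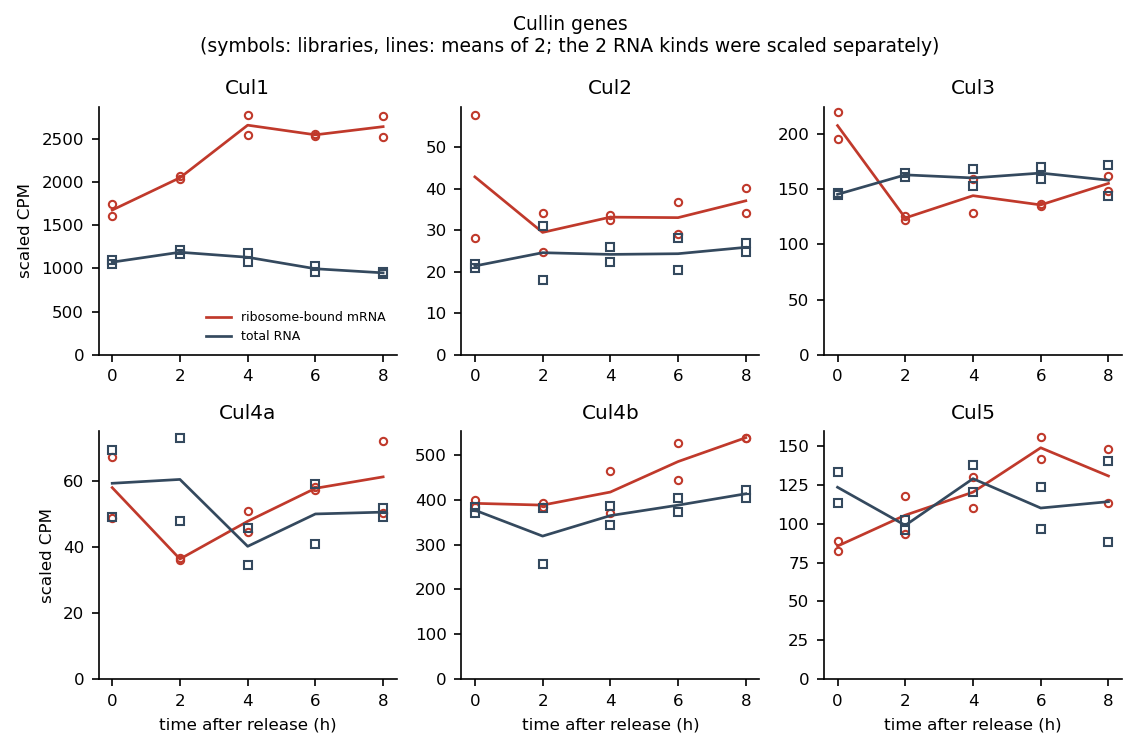
Scaled CPM of the 6 cullin genes against hours after release, red circles and lines for ribosome-bound mRNA and blue squares and lines for total RNA (symbols are libraries, lines are means of 2; the RNA kinds were scaled separately). Cul1 climbs on ribosomes until 4 h and then stays level, and Cul3 is highest on ribosomes at 0 h.

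Skp2, the F-box receptor that brings the kinase inhibitor p27 to Cul1 ligases, changed late. Its ribosome-bound values were 27.4 and 22.2 at 0 h, 24.3 and 27.7 at 2 h, 34.5 and 19.9 at 4 h, 20.6 and 32.4 at 6 h and 57.6 and 48.2 at 8 h. Only the 8 h pair lay above all other libraries, and the log2 change at 8 h was 1.07 ± 0.32 (adjusted p 0.0133 in limma). Total RNA had 56.5 and 48.5 at 8 h, against 55.2 and 49.6 at 0 h, which overlapped, and the difference of the changes, 1.07 ± 0.42, did not pass (adjusted p 0.0729). The call on ribosomes was lost without 0 h replicate 2 or 8 h replicate 1.

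Of the F-box genes outside a block of Fbxw genes on chromosome 9, 11 of 36 rose on ribosomes at 8 h and 4 fell, where 20.2% of all genes rose and 21.8% fell. Their median log2 change was 0.08, beside -0.06 for all genes. The block was set apart after the values were seen, so these figures only describe what was left. With the block included, 11 of 51 F-box genes rose and 17 fell, with a median of -0.26. The most changed was Fbxo33, reported in human cells to recruit the RNA-binding protein YB-1 for ubiquitination. It had 21.1 and 21.6 at 0 h, 48.6 and 34.6 at 2 h, 77.5 and 60.2 at 4 h, 95.1 and 81.9 at 6 h and 102 and 84.7 at 8 h on ribosomes. Its 0 h libraries were nearly equal, and every later pair was above them. Total RNA had 39.99 and 48.7 at 8 h, against 48.5 and 46.8 at 0 h. The log2 change on ribosomes was 1.63 ± 0.24 at 4 h (adjusted p 0.000216 in limma) and 2.07 ± 0.24 at 8 h (3.83e-06), 2.18 ± 0.32 beyond total RNA (3.51e-05).

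Fbxo47, needed for meiotic prophase in the mouse testis, had the highest difference between the ribosome-bound and the total RNA log2 change at 8 h, 2.46 ± 0.73 (adjusted p 0.0184 in limma), at low levels of 22.5 and 13.4 on ribosomes at 8 h and 6.10 and 3.19 at 0 h. Both 0 h libraries of Fbxo47 were under 10, the level by which a gene enters the table, and both calls were lost without ribosome-bound 0 h replicate 2 or 8 h replicate 1, that of the difference also without total 0 h replicate 1 or 8 h replicate 1. It was named after its value was seen.

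Fbxo34 had 197 and 286 at 0 h, 271 and 264 at 2 h, 369.6 and 369 at 4 h, 433 and 423 at 6 h and 422 and 479 at 8 h on ribosomes, with all libraries from 4 h on above both of 0 h (0.92 ± 0.17 at 8 h, adjusted p 0.000274 in limma). Fbxo11, a receptor for the transcription repressor BCL6, had 349 and 384 at 8 h, against 210.2 and 232 at 0 h (0.72 ± 0.15, 0.00118). For Fbxl6 the values were 71.2 and 68.4 at 8 h, against 30.3 and 28.8 at 0 h (1.21 ± 0.27, 0.00157), and its total RNA was higher in value too, 55.7 and 62.8 at 8 h and 36.8 and 32.97 at 0 h (0.75 ± 0.23, adjusted p 0.0783 in limma). None of these groups overlapped, and on ribosomes the genes were picked as higher between the same libraries. Fbxo25 had 34.4 and 33.3 at 8 h, against 15.1 and 9.32 at 0 h, a log2 change of 1.43 ± 0.34 (0.00273). A further 5 risers were Fbxo8, Fbxo15, Fbxo28, Fbxo47 and Fbxl20, whose calls were each lost without 2 or 3 of the single libraries. Fbxo15, a marker of mouse embryonic stem cells, had 18.4 and 19.5 at 8 h, against 10.02 and 2.23 at 0 h (1.74 ± 0.53, 2.62 without ribosome-bound 0 h replicate 1 and 0.86 without 0 h replicate 2), Fbxo8 236 and 163 at 8 h, against 99.5 and 133 at 0 h (0.76 ± 0.20) and Fbxo28 355 and 286 at 8 h, against 249 and 217 at 0 h (0.45 ± 0.17). In each of the 3 genes, which had passed between these same libraries, both 8 h libraries were above both of 0 h. Fbxl20, whose 3′ end is shown above, had 228 and 189 at 8 h, against 82.00 and 162 at 0 h, with a log2 change of 0.84 ± 0.27 that was 0.36 without ribosome-bound 0 h replicate 1 and 1.33 without 0 h replicate 2.

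The 4 outside the block that fell, named after their values were seen, were Fbxo7, Fbxo38, Fbxl19 and Fbxw5. Fbxo7, a regulator of mitophagy linked to parkinsonism in humans, had 49.1 and 46.1 at 0 h, 41.4 and 25.05 at 2 h, 36.99 and 36.9 at 4 h, 19.9 and 26.03 at 6 h and 12.1 and 16.4 at 8 h on ribosomes. Both 8 h libraries were the lowest of the course, and the log2 change was -1.69 ± 0.31 (adjusted p 0.000356 in limma). Fbxo38, which directs PD-1 for degradation in T cells, had 148 and 164 at 8 h, against 306 and 273 at 0 h (-0.89 ± 0.16, 0.000222), while its total RNA was slightly higher in value, 142 and 137 at 8 h, against 126 and 128 at 0 h; the difference of changes was -1.02 ± 0.21 (0.00119). Fbxl19, which binds CpG islands, had 79.3 and 92.4 at 8 h, against 153 and 159 at 0 h (-0.86 ± 0.18, 0.00115), and -0.93 ± 0.24 beyond total RNA (0.00742, lost without total 8 h replicate 1). Fbxw5 had 17.3 and 16.2 at 8 h, against 47.1 and 27.2 at 0 h, a call (-1.05 ± 0.37, 0.0313) lost without ribosome-bound 0 h replicate 1 or either 8 h replicate. Its total RNA was lower in value too, 12.1 and 17.05 at 8 h, against 36.7 and 25.4 at 0 h. So was that of Fbxo7, 18.3 and 15.7 at 8 h, against 31.9 and 22.0 at 0 h. Neither gene passed in total RNA, and in neither did the difference of changes pass.

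Fbxo5, better known as Emi1, the inhibitor of the anaphase-promoting complex, passed at 6 h alone. Its ribosome-bound values were 40.6 and 36.1 at 0 h, 42.8 and 50.1 at 2 h, 65.3 and 52.1 at 4 h, 67.03 and 65.1 at 6 h and 45.98 and 47.7 at 8 h. The 6 h pair had the highest mean and the 8 h pair lay between it and that of 0 h, with log2 changes of 0.77 ± 0.23 at 6 h (adjusted p 0.0189 in limma) and 0.28 ± 0.23 at 8 h (0.34). The 6 h call was lost without ribosome-bound 0 h replicate 2 or either 6 h replicate. Fbxw11, the second β-TrCP gene, had 60.6 and 51.5 at 8 h, against 59.03 and 93.4 at 0 h, and did not pass (-0.40 ± 0.27, 0.24).

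A block of Fbxw genes on chromosome 9 fell together on ribosomes. These 15 genes, Fbxw13 to Fbxw16 and Fbxw18 to Fbxw28 without any Fbxw17 listed, lie at chr9:109139447-109790670 of mm10 (651 kb), all on the minus strand. In GENCODE vM21 the interval holds 14 protein-coding genes, all Fbxw, and Fbxw23, annotated as a transcribed pseudogene. The grouping was made after the values were seen and is given as a description with no test of its own. At 8 h against 0 h 13 of the 15 were lower (86.7%, against 21.8% of all genes), with a median log2 change of -1.23, beside -0.06 for all genes. The counts lower were 0 at 2 h (1 at an unadjusted p under 0.05), 1 at 4 h and 9 at 6 h, with medians of -0.11, -0.17 and -0.53. At 6 h the calls of Fbxw18, Fbxw20 and Fbxw21 held under every alternative. Those of Fbxw13, Fbxw16, Fbxw24, Fbxw25, Fbxw26 and Fbxw27 were each lost without at least 1 single library. With centred libraries the 6 h calls of Fbxw24 and Fbxw27 were lost too.

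Summed over the 15 genes, their share of a ribosome-bound library was 1.09% and 0.957% at 0 h, 0.942% and 1.02% at 2 h, 0.837% and 1.01% at 4 h, 0.776% and 0.736% at 6 h, and 0.509% and 0.492% at 8 h. The 6 h libraries lay below all earlier ones and those of 8 h below all others. In total RNA the sum was 0.445% and 0.429% at 0 h, 0.468% and 0.444% at 2 h, 0.427% and 0.435% at 4 h, 0.449% and 0.424% at 6 h, and 0.338% and 0.340% at 8 h, where only the 8 h pair stood below the rest.

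Fbxw20 had the lowest log2 change of the block at 8 h and was its only gene to pass at 4 h. Its ribosome-bound values were 415 and 374 at 0 h, 329.6 and 359 at 2 h, 249 and 308 at 4 h, 198 and 184 at 6 h and 115 and 117 at 8 h, with each pair from 4 h on below the one before. Total RNA had 265 and 202 at 0 h, 247 and 233 at 2 h, 229 and 215 at 4 h, 217 and 182 at 6 h and 131 and 134 at 8 h. The log2 change on ribosomes was -0.51 ± 0.16 at 4 h (adjusted p 0.0349 in limma), -1.04 ± 0.16 at 6 h (0.000102) and -1.76 ± 0.16 at 8 h (2e-07). In total RNA it was -0.80 ± 0.16 at 8 h (0.00564), and the ribosome-bound fall went beyond it by -0.95 ± 0.22 (0.00276). The 4 h call was lost without ribosome-bound 0 h replicate 1 or 4 h replicate 1.

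Fbxw24 had 2817 and 2657 at 0 h, 2341 and 2654 at 2 h, 2386 and 2677 at 4 h, 2149 and 1969 at 6 h and 1140.1 and 1343 at 8 h on ribosomes, a fall seen mainly between 6 and 8 h. Its total RNA had 856 and 819.9 at 8 h and 941 and 914 at 0 h (-0.15 ± 0.12, adjusted p 0.536 in limma), so that the change on ribosomes of -1.14 ± 0.13 (3.31e-06) lay -1.0 ± 0.17 from it (0.000177). In both RNA kinds the 8 h pair was the lower one, by much more on ribosomes. Fbxw21 had 423 and 329 at 8 h, against 1007 and 939 at 0 h on ribosomes, and in total RNA 345 and 387 at 8 h, against 412 and 399 at 0 h (-1.23 ± 0.18 beyond total RNA, 3.79e-05). Fbxw18 had 440.4 and 419 at 8 h, against 1023 and 1175 at 0 h on ribosomes (-1.35 ± 0.13, 4.3e-07). For these genes, too, the 8 h libraries lay far below those of 0 h. Fbxw15 had 211 and 166 at 8 h, against 532 and 428 at 0 h (-1.34 ± 0.16, 4e-06), and Fbxw16 217 and 178 at 8 h, against 501 and 427 at 0 h (-1.23 ± 0.16, 1.01e-05 in limma). Fbxw25 had 24.9 and 25.9 at 8 h, against 57.4 and 52.05 at 0 h (-1.07 ± 0.24) and Fbxw27 94.7 and 72.6 at 8 h, against 217 and 179.7 at 0 h (-1.24 ± 0.18). No 8 h library of these 7 genes came within the range of their 0 h libraries. The genes had passed as lower between these same libraries, so this is a description and no further evidence.

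The block was not uniform. Fbxw22 and Fbxw28 did not pass on ribosomes: Fbxw22 had 473 and 444 at 8 h, against 713 and 504 at 0 h (-0.39 ± 0.17, adjusted p 0.0716 in limma), and passed without ribosome-bound 0 h replicate 2 (-0.64). Fbxw28 had 361 and 349 at 8 h, against 482 and 354 at 0 h (-0.22 ± 0.16, 0.294), and 0.00 without ribosome-bound 0 h replicate 1. Fbxw14 (-0.55), Fbxw19 (-0.50) and Fbxw23 (-0.79) passed, and lost the call without 2 or 3 of the single libraries. That of Fbxw19 was also lost with centred libraries. Without ribosome-bound 0 h replicate 1 the change was -0.27 for Fbxw14 and -0.19 for Fbxw19, and without 0 h replicate 2 it was -0.82 for Fbxw14 and -0.81 for Fbxw19. Of the windows of 50 bases in their transcripts, Fbxw28 shares 61.5% and Fbxw14 58.9% with other members, mostly with each other, and the other 13 genes of the block share 5.77% to 12.4%, so values of Fbxw14 and Fbxw28 in particular are uncertain where reads could fall on either.

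In total RNA the block held every member that passed. At 8 h Fbxw20, Fbxw26, Fbxw13, Fbxw16 and Fbxw27 were lower, by log2 changes of -0.80, -0.73, -0.66, -0.71 and -0.72. Fbxw26 had 118 and 114 in total RNA at 8 h, against 195 and 189 at 0 h (adjusted p 0.0075 in limma), and 104 and 117 at 8 h, against 319 and 255 at 0 h on ribosomes (-1.37). Fbxw13 had 137 and 127 at 8 h, against 217 and 202 at 0 h in total RNA (0.0264), and 143 and 157 at 8 h, against 443 and 343 at 0 h on ribosomes (-1.37). Without total 0 h replicate 1 none of the 5 passed. Without total 0 h replicate 2 Fbxw20 alone of the 5 did. At 2, 4 and 6 h no member passed in total RNA, where 0%, 0% and 0.202% of all genes passed in limma (0.177% higher and 0.0253% lower at 6 h). At an unadjusted p under 0.05 the members numbered 1, 0 and 8 of 100, and all genes 226, 347 and 613 of 7917. At 8 h the members numbered 20 and all genes 1478. The change on ribosomes lay below that in total RNA for 6 of the 15, where 9.43% of all 7346 genes passed as lower: Fbxw15, Fbxw18, Fbxw20, Fbxw21, Fbxw23 and Fbxw24. In Fbxw23 total RNA was higher in value, 39.1 and 36.3 at 8 h, against 30.02 and 31.95 at 0 h. The call of Fbxw23 was lost with centred libraries and without most of the single libraries. Among the block 6 genes have an annotated 3′ UTR of 100 bases or more (149 to 911 bases), none of which held the CPE letters in its last 100 bases, and 9 do not.

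**Figure D4:**
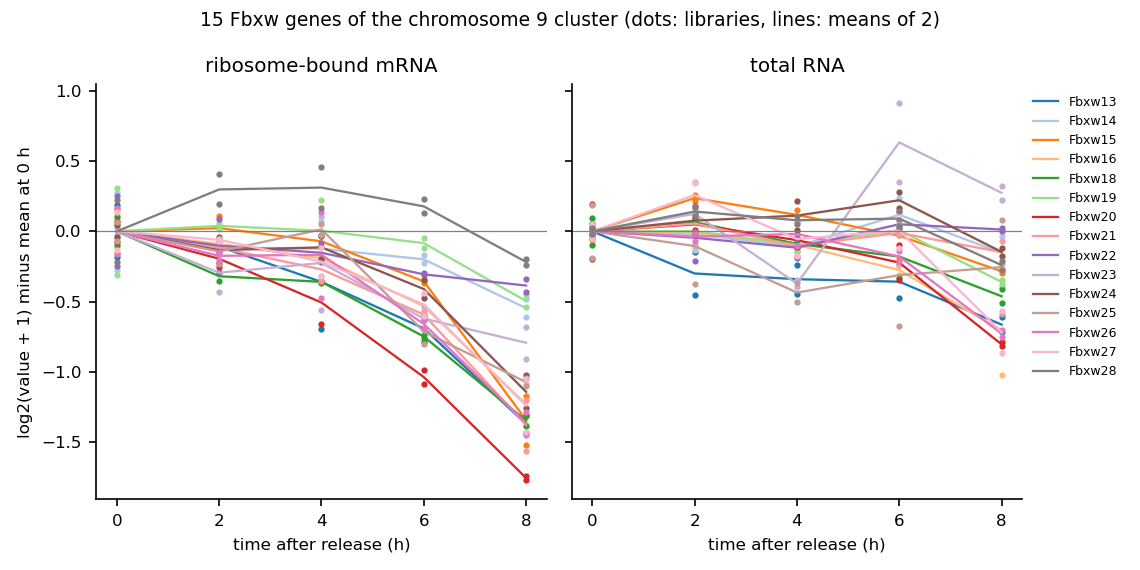
Log2(value + 1) of the 15 Fbxw genes of the chromosome 9 block minus its mean at 0 h, against hours after release, in ribosome-bound mRNA (left) and total RNA (right); dots are libraries and lines are means of 2. At 8 h 13 of the 15 genes passed as lower on ribosomes, to -1.76 for Fbxw20, and 5 passed as lower in total RNA, to -0.80.

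Klhl proteins bind substrates through a kelch domain and Cul3 through a BTB domain. Of 14 listed on ribosomes, Klhl9, Klhl15 and Klhl28 rose at 8 h and Klhl8 fell, where 20.2% of all genes rose and 21.8% fell. The family's median was -0.19, beside -0.06 for all genes. Klhl9, which with Cul3 and KLHL13 controls Aurora B on mitotic chromosomes in human cells, had 85.1 and 93.4 at 0 h, 126 and 130.1 at 2 h, 191 and 165 at 4 h, 215 and 233 at 6 h and 251 and 281 at 8 h on ribosomes. Each pair lay above the one before. In total RNA it had 111 and 99.95 at 0 h, 107 and 110.2 at 2 h, 123 and 120.2 at 4 h, 133 and 141 at 6 h and 152 and 131 at 8 h. The log2 change was 1.56 ± 0.16 on ribosomes at 8 h (adjusted p 1.23e-06 in limma) and 0.42 ± 0.16 in total RNA (0.168), and the excess on ribosomes was 1.14 ± 0.22 (0.000526). Its partner Klhl13 had 236 and 165 at 8 h, against 213 and 277 at 0 h, and did not pass (0.226).

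Klhl15, a receptor for a regulatory subunit of the phosphatase PP2A, had 27.03 and 26.9 at 0 h, 53.4 and 47.1 at 2 h, 73.6 and 66.3 at 4 h, 70.6 and 73.4 at 6 h and 60.6 and 72.7 at 8 h on ribosomes. In total RNA it had 52.8 and 67.5 at 0 h, 49.8 and 62.3 at 2 h, 53.1 and 49.3 at 4 h, 31.6 and 40.6 at 6 h and 36.5 and 49.1 at 8 h. Ribosome-bound levels were above those of 0 h from 2 h on, while in total RNA both libraries of 6 h and of 8 h lay below both of 0 h. The log2 change on ribosomes was 1.34 ± 0.22 at 4 h (adjusted p 0.000589 in limma) and 1.27 ± 0.22 at 8 h (0.000221). In total RNA it did not pass (-0.49 ± 0.24, 0.294), and the difference at 8 h was 1.76 ± 0.32 (0.000379). Klhl28 had 9.38 and 20.8 at 0 h, 13.1 and 14.4 at 2 h, 62.02 and 27.6 at 4 h, 37.6 and 36.9 at 6 h and 46.7 and 41.9 at 8 h. Its libraries differed widely at 0 and 4 h, and the log2 change of 1.59 ± 0.39 at 8 h (0.00316 in limma) was 1.05 without ribosome-bound 0 h replicate 1. Its call at 4 h was lost without ribosome-bound 0 h replicate 1 or 4 h replicate 1.

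Klhl8 was the family member that fell. It had 1236 and 1359 at 0 h, 1037 and 1121 at 2 h, 1041 and 1134 at 4 h, 957 and 950.1 at 6 h and 764 and 837 at 8 h on ribosomes, with each library of 2 h or later below both of 0 h and those of 8 h lowest. Total RNA had 656 and 535 at 8 h, against 521 and 579.7 at 0 h, which overlapped. The log2 change on ribosomes was -0.70 ± 0.13 (adjusted p 0.000314 in limma), -0.80 ± 0.19 from that of total RNA (0.00348). Klhl21, which brings Cul3 to Aurora B at the midzone of human cells, passed as lower at 6 h alone (-1.19 ± 0.37, 0.0221), with 11.7 and 10.5 at 6 h and 35.1 and 19.9 at 0 h, a call lost without ribosome-bound 0 h replicate 1 or either 6 h replicate. The other 9 Klhl genes listed on ribosomes, Klhl13 among them, passed at no time.

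**Figure D5:**
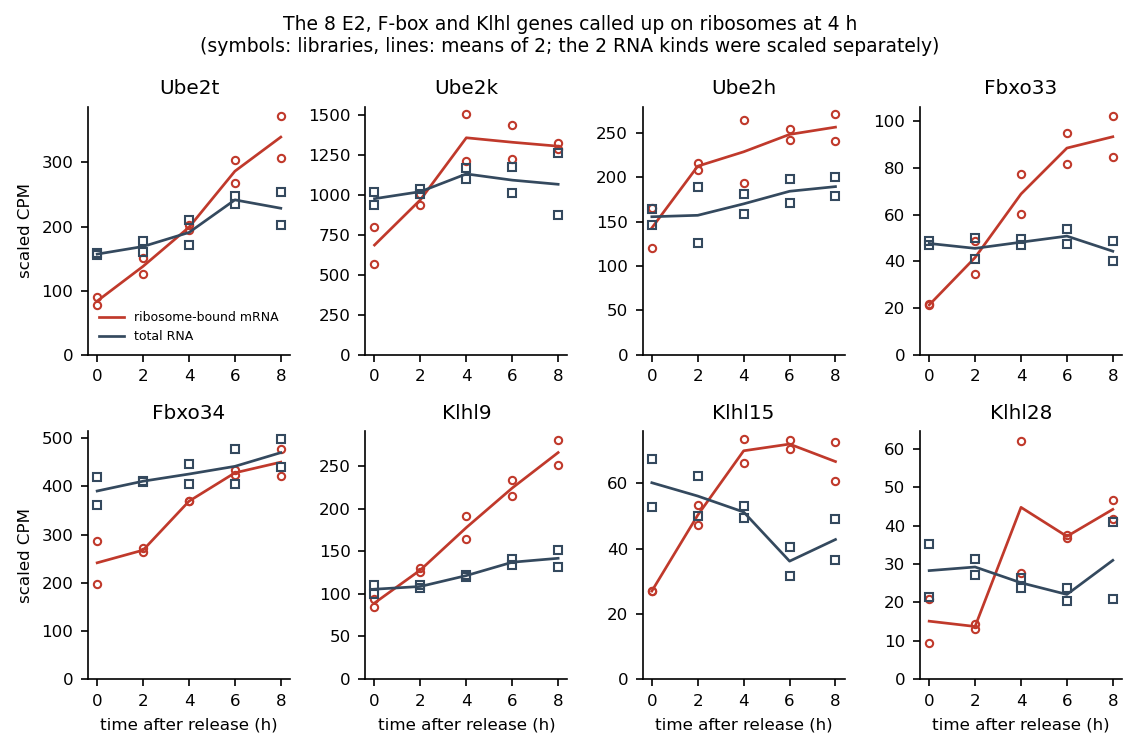
Scaled CPM of the 8 E2, F-box and Klhl genes that passed as higher on ribosomes at 4 h, against hours after release, red circles and lines for ribosome-bound mRNA and blue squares and lines for total RNA (symbols are libraries, lines are means of 2; the RNA kinds were scaled separately). In each gene the 8 h ribosome-bound libraries lie above those of 0 h, the same libraries against which the genes were chosen at 4 h.

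The change on ribosomes was set against that in total RNA for the 94 members in both tables. It differed for 0 members at 2 h, where 0.0953% of all 7346 genes passed (0.0136% higher, 0.0817% lower). At an unadjusted p under 0.05 in limma the members numbered 11 and all genes 766. At 4 h 6 members passed, all with the higher change on ribosomes, where 5.1% of all genes passed (3.09% higher, 2.01% lower): Ube2t, Ube2k, Cul1, Fbxo33, Klhl9 and Klhl15. At 6 h 9 passed as higher and 7 as lower, where 11.7% of all genes passed (7.34% higher, 4.37% lower), and with centred libraries 11 and 5. At 8 h 9 passed as higher and 13 as lower, 23.4% of members where 21% of all genes passed (11.6% higher, 9.43% lower), and with centred libraries 13 and 11. The 4 h count fell to 2 without total 0 h replicate 1 or total 4 h replicate 1, and the 6 h count to 7 without ribosome-bound 6 h replicate 2 or total 0 h replicate 2.

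Other genes of the pathway, which are not among the 102, moved in both directions on ribosomes at 8 h, where 20.2% of all genes were higher and 21.8% lower, with a median of -0.06. Of 9 listed genes for E1s, ubiquitin and its relatives 2 were higher and 5 lower, with a median log2 change of -0.61. Uba3, the catalytic subunit of the E1 for NEDD8, rose (1.72 ± 0.27, adjusted p 8.12e-05 in limma), as did the ubiquitin E1 Uba6 (0.56 ± 0.20, 0.029), while the polyubiquitin gene Ubb (-2.67 ± 0.18, 6.29e-09), the SUMO E1 subunit Uba2 (-1.02 ± 0.19, 0.000413) and Nedd8 itself (-1.12 ± 0.25, 0.00149) fell. Among the RING and adaptor genes, of which 23 were listed, 8 were higher and 7 lower (median 0.25). The Cul3 receptors Kbtbd8 (1.07 ± 0.15) and Kbtbd7 (0.89 ± 0.14) and the Cul4 receptor Ddb2 (2.38 ± 0.37) rose, and the Cul4 receptor Dcaf13 (-2.02 ± 0.28), the β-TrCP gene Btrc (-1.07 ± 0.18) and Rbx1 (-1.53 ± 0.30), the RING protein of most cullin ligases, fell. The cycle genes that follow were mixed as well. Of 16 listed genes of the cycle that adds NEDD8 to cullins and removes it 4 were higher and 7 lower (median -0.38). Dcun1d5 (1.01 ± 0.18) and Dcun1d1 (0.52 ± 0.17), which help to add NEDD8, and the NEDD8 protease Senp8 (0.90 ± 0.17) rose. The COP9 signalosome genes Cops5 (-1.67 ± 0.21), whose product removes NEDD8, Cops6 (-1.68 ± 0.29) and Cops7a (-1.27 ± 0.26) fell. Calls of these genes outside the 102 were not followed through the alternatives, such as single libraries left out.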

How the data were processed

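Groups followed the titles and the series design, since the description field says ribosome-bound for total RNA too. The deposited signal is scaled CPM (the authors' CPM times a factor per library), in 2 tables scaled separately. The submitters' processing notes name HISAT2 for mm10, HTSeq, SAMtools, Trimmomatic 0.36, FastQC, limma and edgeR. Not given in the sources used here were strand, poly(A) selection and the treatment of reads with several matches. Totals per library were 968768 to 1052767, in 10 of 20 above what plain CPM, which the plan had assumed, can sum to; the log2 test was kept. Depth was inferred from the step of 1 read (100% of values whole within 0.01 of a read). The lowest maximum of any listed gene over a table's libraries was 10.3. Replicates differed by more than counting error (chi-square per degree of freedom 48.6 to 154.5).

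Values were taken as log2(value + 1), so fold changes of low genes are understated, for genes of at least 1 in 2 libraries, which kept all. limma 3.58.1 (R 4.3.3), with a trend and empirical Bayes moderation, was fitted over all genes and times of each table, and over both tables for the difference between RNA kinds, 12 comparisons in all; tests were two-sided, with Benjamini-Hochberg adjustment over all genes of a comparison and a threshold of 0.05. The model was tested on simulated data. Members and lists were chosen with earlier results of these data known. Genes named are the cullins and Skp2, up to 6 per direction and family on ribosomes at 8 h, up to 4 beyond total RNA and 3 in total RNA, up to 3 at 2 and 4 h, and a panel of 14; Fbxl20, Fbxo46, Klhl13, Klhl21 and others so marked were picked with their values in view. Some members counted in the report are not reported here by name. Alternatives were pseudocounts of 5 and 0.5, a mean of at least 20, centred libraries, single libraries left out and a replicate block. Positions and 3′ ends are from GENCODE vM21 (102 of 102 members matched by gene ID, 81 with the same version).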

Additional observations from a re-analysis of the deposited data

Results flagged for a closer look

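For 22 of the 94 members in both tables the change at 8 h against 0 h on ribosomes differed from that in total RNA by the interaction of RNA kind and time (limma, adjusted over all 7346 genes). Among those given here, the change on ribosomes was the higher one for Fbxo47 (difference in log2 change 2.46), Fbxo33 (2.18), Klhl15 (1.76), Ube2t (1.47), Klhl9 (1.14), Ube2k (0.84), Cul1 (0.83) and Fbxo34 (0.65). It was the lower one for Ube2o (-1.75), Fbxw21 (-1.23), Fbxl2 (-1.19), Fbxw23 (-1.07), Fbxw15 (-1.06), Fbxo38 (-1.02), Fbxw24 (-1.0), Fbxw20 (-0.95), Fbxl19 (-0.93), Fbxw18 (-0.89), Klhl8 (-0.80), Fbxo42 (-0.80) and Ube2d3 (-0.68). Of these calls 14 held under every alternative run. Those of Fbxo42, Ube2k, Fbxl19, Fbxl2, Fbxo34, Fbxo47, Ube2d3 and Fbxw23 were lost without at least 1 single library.

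Fbxl2 and Fbxo42 did not pass on ribosomes alone. Fbxl2 had 35.1 and 19.2 scaled CPM on ribosomes at 8 h, against 52.9 and 38.8 at 0 h, and 44.01 and 57.2 at 8 h, against 30.4 and 46.04 at 0 h in total RNA. Fbxo42 had 84.7 and 112 on ribosomes at 8 h, against 148 and 128 at 0 h, and 165 and 138 at 8 h, against 126 and 117 at 0 h in total RNA. In both genes the 8 h libraries were lower on ribosomes, and in total RNA Fbxo42 was higher without overlap while Fbxl2 overlapped.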

How the results depend on the processing

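Pseudocounts of 5 and 0.5 ended no call of a named member. With 5 the 8 h count beyond total RNA was 23 in place of 22. Centring moved the median of all genes by at most 0.07 (log2). Single members that were not called were followed through the alternatives on ribosomes at 8 h only, so new calls elsewhere are not counted below. Over the named members' results, 1059 alternatives left direction and call as they were, 165 ended a call, 2 made one and 5 turned a sign, which were Cul2 (-0.63 to 0.39 with single libraries left out, 0.39 without ribosome-bound 0 h replicate 1), Cul4a (-0.18 to 0.33; -0.15 without ribosome-bound 0 h replicate 1 and -0.18 without 8 h replicate 1), Ube2r2 (-0.12 to 0.53; -0.12 without ribosome-bound 0 h replicate 2) and Fbxw28 (-0.44 to 0.00; 0.00 without ribosome-bound 0 h replicate 1). None of them was called. With a mean of at least 20 the 2 h count on ribosomes was 4 in place of 2, and Cul3 passed at 8 h.

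With single libraries left out, the members called on ribosomes ranged from 0 to 2 at 2 h, 6 to 11 at 4 h, 13 to 31 at 6 h and 33 to 41 at 8 h. In total RNA they were 0 at 2, 4 and 6 h and 0 to 5 at 8 h. For the change beyond total RNA the counts were 0 at 2 h, 2 to 7 at 4 h, 7 to 15 at 6 h and 18 to 28 at 8 h, and 11 to 13 of the chromosome 9 Fbxw genes were called lower. The calls that held under every alternative were 0 of 2, 6 of 12, 12 of 31 and 29 of 43 on ribosomes at 2, 4, 6 and 8 h, and 0 of 5 in total RNA at 8 h. Where a group was left with 1 library, that library was assumed to vary like the others.

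The replicate numbers were not taken as pairs, since the labels give no shared source and same-numbered samples of the 2 RNA kinds had correlations of -0.084 to 0.036 in their deviations, 0 of 5 over 0.1. With a replicate block the counts were 0 on ribosomes at 2 h and 3 for the change beyond total RNA at 4 h, and 42 on ribosomes at 8 h. The block ended calls of Ube2t (adjusted p 0.0694) and Cul3 (0.0589) at 2 h, Cul3 (0.0576), Fbxw20 (0.0501) and Ube2o (0.0545) at 4 h and Fbxo28 (0.0532) at 8 h on ribosomes. It also ended those of Fbxl2 (0.0646), Fbxo34 (0.06), Fbxo42 (0.0525) and Fbxw23 (0.0507) for the 8 h difference, all in limma. The planned test on whole reads was not run. The deposited values are scaled CPM, and reads inferred from them were used for depth and counting error only. With 2 libraries a group, changes smaller than those called may be missed, and 21 of 96 members had a mean under 20 on ribosomes.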

Other observations

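The members listed in 1 table only were at low levels throughout. In the ribosome-bound table Fbxl4 had 16.7 and 15.7 scaled CPM at 8 h and 16.5 and 13.3 at 0 h, and did not pass (0.12 ± 0.40). In the total RNA table Fbxo17 had 8.07 and 16.04 at 8 h and 13.7 and 12.2 at 0 h, Fbxo22 16.5 and 15.8 at 8 h, against 18.5 and 17.8 at 0 h, and Fbxw4 14.1 and 15.8 at 8 h, against 11.2 and 12.97 at 0 h. The Klhl genes of that table alone were Klhl1 (3.19 and 7.45 at 8 h, 18.3 and 9.52 at 0 h), Klhl20 (11.05 and 20.5 at 8 h, against 25.03 and 12.3 at 0 h) and Klhl36 (1.84 and 7.08 at 8 h, against 6.21 and 15.1 at 0 h). None of these 6 passed in total RNA at 8 h in limma.

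Fbxo46 had 30.4 and 29.7 at 0 h, 22.6 and 19.4 at 2 h, 9.93 and 21.9 at 4 h, 7.37 and 12.7 at 6 h and 12.5 and 27.4 at 8 h on ribosomes. It passed as lower at 6 h (-1.54 ± 0.43, adjusted p 0.0136 in limma) and not at 8 h, where its libraries differed widely; the 6 h call was lost without ribosome-bound 0 h replicate 1 or 6 h replicate 1.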
